A study of Homo sapiens with 6 samples.

Results

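The genes examined here are 10 transcripts of the hypoxia response that lie outside glycolysis: CA9, BNIP3, BNIP3L, EGLN1, EGLN3, VEGFA, ADM, NDRG1, PDK1 and ANKRD37. They were selected by symbol, and all 10 were found among the 28008 gene symbols of the count table. The RNA came from NCI-H660, an established line of neuroendocrine prostate cancer (NEPC), in which a doxycycline-inducible vector (pLKO-tet-puro, puromycin selection) drives a short hairpin RNA against MUC1. All libraries came from cells with this vector. DOX-negative cultures received 0.1% DMSO as vehicle and DOX-positive cultures received 500 ng/ml doxycycline (DOX), which switches on the hairpin. Exposure lasted a week according to the paper's legends. The titles alone separate the groups, since the treatment field of every library reads wild-type. There were 3 DOX-negative and 3 DOX-positive libraries from triplicate cultures. No library with DOX and a control hairpin was analysed here, so DOX itself and the loss of MUC1 cannot be told apart. The sources used here give no oxygen tension or cell density, and do not say whether the line was a clone or a pool.

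Cells sense oxygen through the HIF transcription factors. In the presence of oxygen the prolyl hydroxylases of the EGLN family mark HIF-α subunits for recognition by VHL and for degradation. When oxygen falls, HIF-α accumulates, pairs with ARNT and binds DNA at hypoxia response elements, whose core is usually ACGTG and in a variant form starts with G (GCGTG). The induced transcripts serve pH control (CA9), removal of mitochondria (BNIP3, BNIP3L), vessel growth and tone (VEGFA, ADM), restraint of pyruvate entry into mitochondria (PDK1) and negative feedback on HIF (EGLN1, EGLN3). Since glycolytic enzymes are HIF targets too, these genes give a view of the same pathway that does not depend on glycolysis, which the study examined after MUC1-C silencing.

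Total counts were between 47620696 and 74061121 per library. MUC1, the gene targeted by the hairpin, had 88.2, 90.2 and 79.6 CPM (a normalized counts-per-million value) without DOX and 36.7, 37.2 and 29.9 CPM with DOX. Here and below, the 3 values of a group belong to replicates 1, 2 and 3 in that order. MUC1 therefore fell in every DOX-positive library, by 1.32 on the log2 scale (SE 0.096, edgeR adjusted p = 0.00017). All 9 neuroendocrine markers checked were tested, with CHGA between 189.7 and 238.5 CPM. Of the 9, 2 (INSM1 and NCAM1) were called lower with DOX, against 1.96% of all 17026 tested genes. The luminal gene KLK3 had 0 counts in every library, and 2 of the 6 luminal markers passed the filter on low counts. Markers of fibroblasts, endothelium and immune cells summed to at most 30.7, 8.73 and 3.87 CPM in any library. COL3A1, CD3E and MS4A1 had 0 counts in every library, PTPRC at most 1 and PECAM1 at most 6. Of the 8 markers in these lists that were tested, COL1A1, LUM, CDH5, VWF and CD68 were called higher with DOX and 0 were called lower. Over all tested genes, 2.91% were called higher and 1.96% lower. COL1A2 (-0.71, SE 0.27, adjusted p = 0.20) and KDR (-0.74, SE 0.49, adjusted p = 0.44) had the opposite sign without passing the edgeR threshold. The part of these markers in the results below was not tested.

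To show the sequence context of these genes, the bases before the start site were searched for the core letters of the hypoxia response element. RefSeq promoters (GRCh38.p14) were matched for 7 of the 10 genes, and the 250 bases upstream of the annotated start were searched for both forms on both strands. ACGTG was found in 4 of the 7, against 22.5% of 12026 promoters of tested genes, and GCGTG in 2 of the 7, against 43.6%. Because CACGTG reads as ACGTG on both strands, such a site is counted on each. The upstream sequences of the 4 genes with ACGTG follow, 5′ to 3′ on the strand of the gene, with every match in capitals.
CA9: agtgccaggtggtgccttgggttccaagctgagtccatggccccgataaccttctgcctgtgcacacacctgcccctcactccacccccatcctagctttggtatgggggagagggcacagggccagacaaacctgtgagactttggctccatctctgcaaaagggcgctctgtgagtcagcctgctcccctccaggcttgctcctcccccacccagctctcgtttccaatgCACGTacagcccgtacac
BNIP3: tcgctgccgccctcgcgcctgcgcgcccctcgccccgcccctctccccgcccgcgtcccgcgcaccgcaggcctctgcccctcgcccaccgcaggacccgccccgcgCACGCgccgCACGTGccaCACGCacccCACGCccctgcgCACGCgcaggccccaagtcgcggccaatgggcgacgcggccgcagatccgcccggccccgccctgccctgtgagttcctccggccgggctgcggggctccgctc
ANKRD37: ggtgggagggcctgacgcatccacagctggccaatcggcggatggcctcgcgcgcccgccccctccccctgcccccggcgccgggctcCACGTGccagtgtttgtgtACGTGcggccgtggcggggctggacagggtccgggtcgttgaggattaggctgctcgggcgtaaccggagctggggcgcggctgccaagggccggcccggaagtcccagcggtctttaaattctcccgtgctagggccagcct
EGLN1: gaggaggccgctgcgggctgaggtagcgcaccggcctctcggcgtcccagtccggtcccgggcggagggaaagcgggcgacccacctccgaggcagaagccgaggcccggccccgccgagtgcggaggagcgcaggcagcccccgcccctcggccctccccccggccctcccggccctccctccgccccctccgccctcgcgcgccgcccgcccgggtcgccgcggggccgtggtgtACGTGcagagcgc

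The CA9 sequence lies at chr9:35673678-35673927 on the plus strand and holds 1 match, from -18 to -14 relative to the start. The BNIP3 sequence (chr10:131981924-131982173, minus strand) holds a cluster of matches between -143 and -100, and that of ANKRD37 (chr4:185396591-185396840, plus strand) holds matches between -162 and -139. The EGLN1 sequence (chr1:231422288-231422537, minus strand) has 1 match, from -13 to -9. ADM had 1 GCGTG, from -101 to -97, and EGLN3 and PDK1 had none of these letters in the window, which says nothing about sites elsewhere.

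The 10 genes were expressed at very different levels. Per length, NDRG1 was the most abundant, with a median of 159.3 TPM (a transcripts-per-million value) over the 6 libraries and a range of 72.2 to 361.3 TPM. VEGFA (median 30.2 TPM) and BNIP3 (25.7 TPM) followed and overlapped in range, as did BNIP3 and BNIP3L (12.6 TPM). The range of BNIP3L did not reach down to that of EGLN3 (6.34 TPM). EGLN3, EGLN1 (3.86 TPM), PDK1 (2.35 TPM), ANKRD37 (1.82 TPM) and ADM (1.67 TPM) each overlapped the next in this order. CA9, the surface carbonic anhydrase often used as a marker of hypoxia, had 1, 0 and 1 counts without DOX and 2, 3 and 0 counts with DOX. A count of 0 allows up to 3 counts, or 0.0630 CPM in the shallowest library (counting error only), and as no library held more CA9 than this, no fold is given. CA9, whose upstream ACGTG is printed above, was the only one of the 10 genes removed by the filter on low counts.

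Of the 10 genes, 9 were tested for a change with DOX and 0 were called at an adjusted p under 0.05 (edgeR quasi-likelihood test, Benjamini-Hochberg), against 4.87% of the 17026 genes tested (2.91% called higher and 1.96% called lower). At an unadjusted p under 0.05 there were 3 of the 9, against 21.1% of all genes, and DESeq2 called 1 of the 9, against 8.46% of the genes it gave an adjusted p. The median log2 fold change of the 9 was -0.22, with 2 higher and 7 lower, beside 0.00034 for all genes. With 3 libraries against 3, an exact permutation test of a single gene cannot go below p = 0.10, so the model across all genes was used. In bulk RNA, fewer cells with a transcript and less of it per cell cannot be told apart.

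Both mitophagy receptors differed more between replicates than between groups. BNIP3, an outer mitochondrial membrane protein that recruits autophagosomes, had 61.7, 96.8 and 91.0 CPM without DOX and 101.6, 62.2 and 33.2 CPM with DOX. DOX-positive replicate 1 was the highest of all 6 libraries and DOX-positive replicate 3 the lowest, so that the DOX-positive group spanned the DOX-negative one. The log2 fold change was -0.34 (SE 0.47, adjusted p = 0.75), with a 95% interval from -1.59 to 0.91. BNIP3 was at -0.80 without DOX-positive replicate 1 and at -0.019 without DOX-positive replicate 3. RefSeq lists 46 BNIP3 pseudogenes, 0 of which are in the count table, so reads shared with these copies make the level uncertain. BNIP3L (NIX), its relative with a role in mitochondrial clearance, had 72.2, 92.2 and 106.1 CPM without DOX and 99.0, 67.3 and 65.5 CPM with DOX. The same libraries were low, namely DOX-negative replicate 1 and DOX-positive replicates 2 and 3, and the change was -0.22 (SE 0.19, adjusted p = 0.57). BNIP3L was at -0.44 without DOX-positive replicate 1 and at -0.094 without DOX-negative replicate 3.

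The oxygen-sensing hydroxylases EGLN1 and EGLN3 are themselves HIF targets. EGLN1 (PHD2), the main HIF hydroxylase in most cells, had 47.6, 57.3 and 62.1 CPM without DOX and 61.1, 46.5 and 47.8 CPM with DOX. These groups overlapped, with a change of -0.10 (SE 0.12, adjusted p = 0.68) and a 95% interval from -0.36 to 0.16. EGLN1 was at -0.24 without DOX-positive replicate 1 and at -0.023 without DOX-negative replicate 3. EGLN3 (PHD3), the more strongly inducible enzyme, had 26.4, 35.9 and 39.97 CPM without DOX and 29.0, 20.6 and 17.1 CPM with DOX. Only DOX-positive replicate 1 reached into the DOX-negative range. The EGLN3 change was -0.62 (SE 0.21), with an unadjusted p of 0.021 in the edgeR model and an adjusted p of 0.15. Without DOX-positive replicate 1 it was -0.86 and was called (adjusted p = 0.012), and without DOX-positive replicate 3 it was -0.45. Over 19 alternatives the edgeR, DESeq2 and limma adjusted p of EGLN3 ran from 0.012 to 0.99995.

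Neither secreted factor had a lower mean with DOX. VEGFA, the principal angiogenic growth factor induced by HIF, had 207.5, 219.4 and 218.2 CPM without DOX and 238.2, 221.0 and 199.4 CPM with DOX. The means of 215.0 ± 6.56 and 219.5 ± 19.4 CPM (SD, n = 3) differed by less than the spread. The change was 0.030 (SE 0.079, adjusted p = 0.87), with a 95% interval from -0.14 to 0.20. VEGFA still ranked the libraries as BNIP3 did in the DOX-positive group, but over a range of only 1.19-fold. ADM, which encodes the vasodilator peptide adrenomedullin, had 3.57, 4.27 and 4.12 CPM without DOX and 5.77, 5.13 and 5.045 CPM with DOX. All 3 DOX-positive libraries were above all 3 DOX-negative libraries, a separation in that direction seen in 14.8% of all tested genes (28.1% in either direction). The ADM change of 0.42 (SE 0.12, adjusted p = 0.071) did not pass the threshold, and 0 of 19 alternative analyses called it.

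NDRG1 had the widest range. This gene, which is induced by hypoxia, iron chelation and differentiation and acts as a metastasis suppressor in several tumors, had 825.9, 1357 and 1347 CPM without DOX and 1831, 997.3 and 454.6 CPM with DOX. The DOX-positive libraries were thus the highest and the lowest of the 6 and differed 4.03-fold from each other. The group means of 1177 ± 303.9 and 1094 ± 693.5 CPM (SD, n = 3) were close, and the change was -0.10 with an SE of 0.58 (adjusted p = 0.95). Its sign depended on single libraries, since NDRG1 was at -0.70 without DOX-positive replicate 1, at 0.27 without DOX-positive replicate 3 and at 0.011 without DOX-negative replicate 2. Its 95% interval, from -1.64 to 1.43, therefore excludes neither a 2-fold rise nor a 2-fold fall.

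PDK1, the kinase that inhibits pyruvate dehydrogenase, had 21.0, 30.2 and 34.0 CPM without DOX and 33.6, 21.7 and 16.7 CPM with DOX. Here too DOX-positive replicate 1 lay among the higher DOX-negative libraries and DOX-positive replicate 3 was lowest, and the change was -0.24 (SE 0.30, adjusted p = 0.71). PDK1 was at -0.57 without DOX-positive replicate 1 and at -0.034 without DOX-positive replicate 3. ANKRD37, an ankyrin-repeat protein and a direct HIF-1 target, had 2.35, 2.97 and 3.61 CPM without DOX and 2.22, 1.6002 and 1.33 CPM with DOX. The groups did not overlap, as for 13.3% of all tested genes in that direction, but DOX-positive replicate 1 was only just below DOX-negative replicate 1. The ANKRD37 change of -0.78 (SE 0.21) was the largest of the 9, at an adjusted p of 0.054. It was called in 5 of 19 alternatives, among them DESeq2 (adjusted p = 0.012), the model with a replicate block (-0.79, adjusted p = 0.038) and the fit without DOX-positive replicate 1 (-1.02, adjusted p = 0.019). Over all 19 the edgeR, DESeq2 and limma adjusted p of ANKRD37 ran from 0.012 to 0.58. ANKRD37 overlaps UFSP2 and LRP2BP in RefSeq and the strand setting of the counting is not given in the sources used here. UFSP2, the more abundant neighbor, was at 0.040 (SE 0.096, edgeR adjusted p = 0.86). LRP2BP, with fewer counts, was at -0.32 (SE 0.21, edgeR adjusted p = 0.42), the same sign as ANKRD37. The part of reads shared with either neighbor in the ANKRD37 change was not tested.

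**Figure D1:**
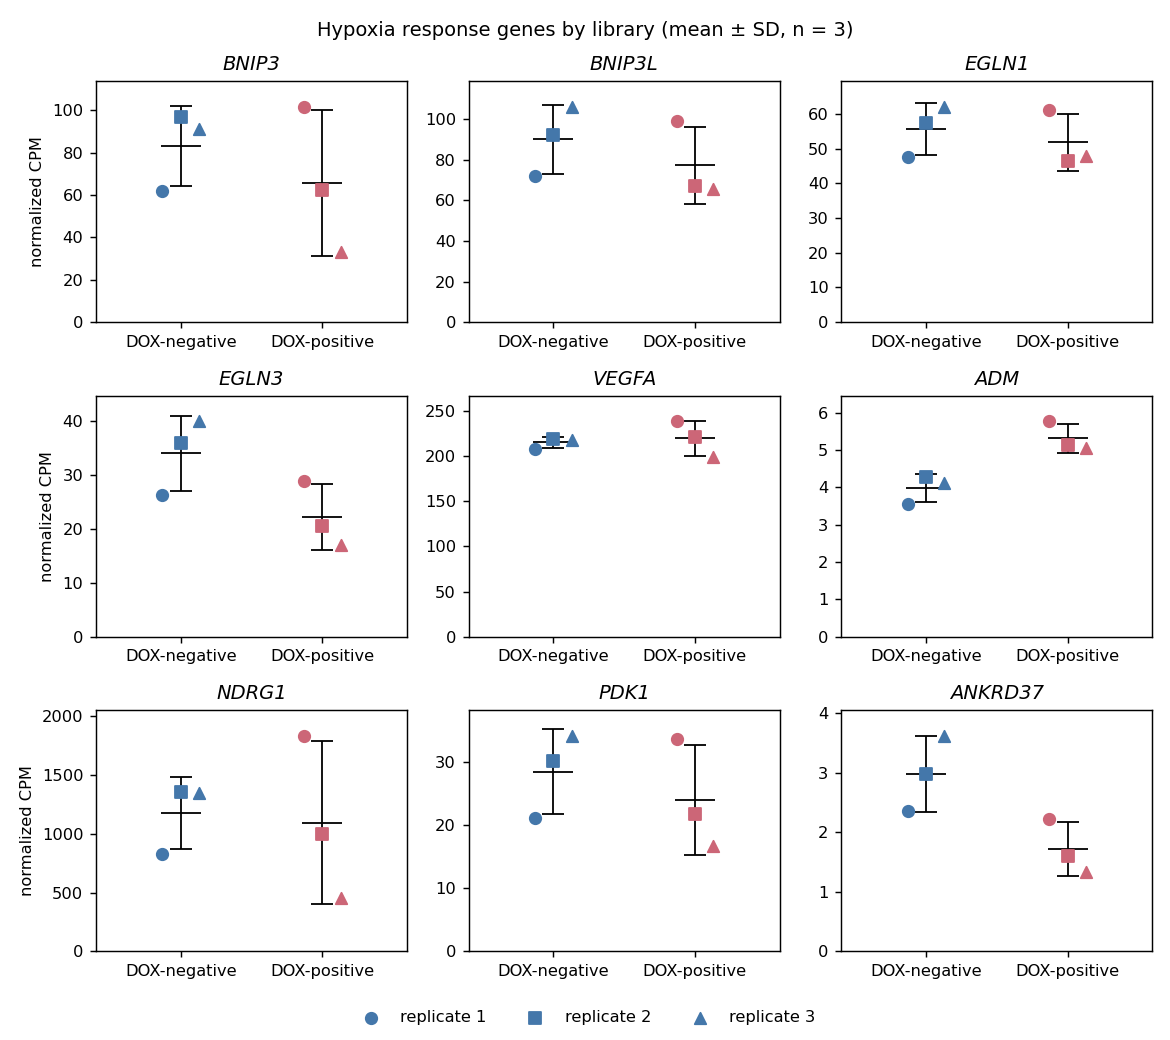
Normalized CPM (vertical axis, linear from 0) of the 9 tested genes in each library, with 1 symbol for each replicate number, blue for DOX-negative and red for DOX-positive, and bars for the mean ± SD of 3 libraries. Replicate 1 is the lowest DOX-negative and the highest DOX-positive library in all 9 panels, and the groups separate for ADM and ANKRD37.

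**Figure D2:**
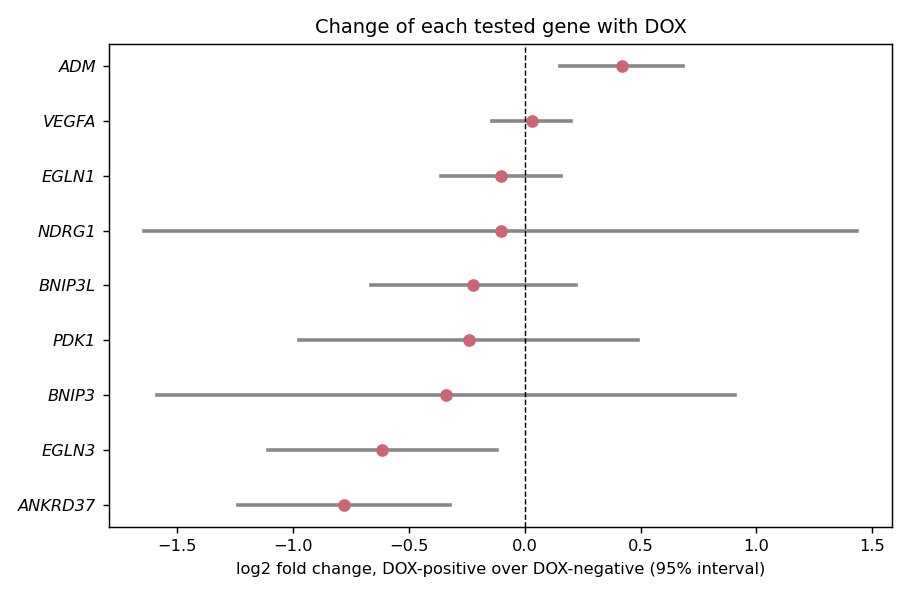
Log2 fold change of DOX-positive over DOX-negative for the 9 tested genes (points) with 95% intervals of the edgeR model (bars), not adjusted for the number of genes. The interval of NDRG1, from -1.64 to 1.43, is the widest, and those of EGLN3, ANKRD37 and ADM lie on one side of 0.

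The 9 genes shared the lowest DOX-negative and the highest DOX-positive library, a pattern that was known when the list was drawn up and is therefore given as a description without a test, as is the spread between replicates below. DOX-negative replicate 1 was the lowest DOX-negative library for 9 of 9 genes, and DOX-positive replicate 1 was the highest DOX-positive library for 9 of 9. Both held together for 13.4% of all 17026 tested genes. DOX-positive replicate 3 was the lowest DOX-positive library for 8 of the 9, EGLN1 being the exception, and for 5931 of all 17026 tested genes. On TPM as deposited, DOX-negative replicate 1 was lowest for 7 of the 9 genes, DOX-positive replicate 1 was highest for 9, and DOX-positive replicate 3 was lowest for only 3. RN7SK, a small nuclear RNA without a poly(A) tail, alone held between 21.2% and 27.1% of the TPM of a library. A list of 7 such RNAs took 11.96%, 11.2% and 12.8% of the counts without DOX and 10.7%, 16.3% and 13.3% with DOX. Its part in the order of the libraries was not tested.

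The spread between replicates was then compared with that of other genes. The within-group SD of log2 CPM had a median of 0.34 over the 9 genes, against 0.12 over the 14587 genes whose mean reached 50 counts. NDRG1 (SD 0.77) was above 99.8% of those genes, BNIP3 (0.62) above 99.6% and PDK1 (0.44) above 98.9%. EGLN3 (0.35), ANKRD37 (0.34) and BNIP3L (0.31) were also above the 90th percentile, which was 0.24. EGLN1 (0.21) lay at the 84.7th percentile, ADM (0.12) at the 50.7th and VEGFA (0.096) at the 33.8th, so that both secreted factors lay near the middle of all genes or lower. Among only the 8901 genes whose mean reached 1000 counts, EGLN1 lay higher, at percentile 93.7, and VEGFA at percentile 45.1. ADM did not reach that mean. The difference between the group means made up 4.98% of the variance of NDRG1 and 16.8% of that of BNIP3, compared with 54.9% for EGLN3, 67.1% for ANKRD37 and 81.4% for ADM. It was under 20% for 6 of the 9, and its median was 16.8% beside 28.0% over the 14587 genes.

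**Figure D3:**
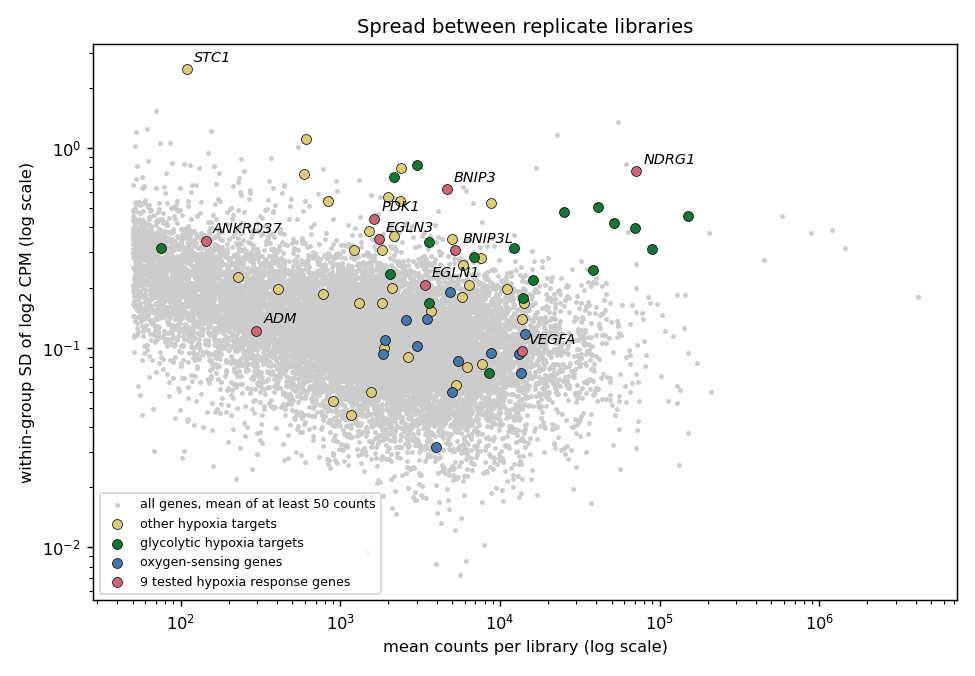
Within-group SD of log2 CPM against mean counts per library (both log scales) for 14587 genes (grey), with the 9 tested hypoxia response genes in red, other hypoxia targets in yellow, glycolytic hypoxia targets in green and oxygen-sensing genes in blue. NDRG1, BNIP3 and PDK1 sit above most genes of like counts, and VEGFA and ADM within the bulk. The oxygen-sensing list, which leaves out EGLN1 and EGLN3 (in red), sits at 0.19 or lower.

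The genes that sense oxygen and assemble HIF had smaller SDs. In a list of 15 such genes, of which 14 were tested, the median within-group SD was 0.098 and the median log2 fold change 0.063, and 0 of the 13 that reached a mean of 50 counts were above the 90th percentile of spread. HIF1A, the α subunit regulated mainly at the level of protein, had 227.4, 244.5 and 227.4 CPM without DOX and 230.5, 193.1 and 234.1 CPM with DOX. Its change was -0.088 (SE 0.085, adjusted p = 0.60), with DOX-positive replicate 2 lowest of the 6 libraries. EPAS1, which encodes HIF-2α, was the 1 gene called of the 14 tested in this list, beside 4.87% of all tested genes. EPAS1 had 26.3, 25.5 and 23.1 CPM without DOX and 30.7, 32.8 and 34.5 CPM with DOX, a rise of 0.39 (SE 0.088, adjusted p = 0.029). EPAS1 was no longer called in 6 of 19 alternatives (the 3 based on deposited TPM, and those leaving out DOX-negative replicate 2 or 3 or DOX-positive replicate 3), while the value stayed between 0.31 and 0.43. Of the partners, ARNT was at 0.086 (SE 0.073, edgeR adjusted p = 0.55) and ARNT2 at 0.16 (SE 0.091, adjusted p = 0.33). VHL was at 0.065 (SE 0.079, edgeR adjusted p = 0.69) and RBX1, of the VHL ubiquitin ligase, at -0.12 (SE 0.097, adjusted p = 0.54).

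Further HIF targets outside glycolysis were compared with the 9 genes by a list of 40, of which 39 were tested. DOX-negative replicate 1 was lowest and DOX-positive replicate 1 highest in their groups for 31 of the 39, and 15 of the 35 that reached a mean of 50 counts were above the 90th percentile of spread. Their median log2 fold change was -0.11, with 14 higher and 25 lower. ANGPTL4, a secreted inhibitor of lipoprotein lipase, rose from 2.54 ± 0.36 to 4.52 ± 0.73 CPM (SD, n = 3), by 0.82 (SE 0.16, adjusted p = 0.016). VLDLR, a lipoprotein receptor, fell by 0.49 on the log2 scale (SE 0.099, adjusted p = 0.019). ANGPTL4 failed the threshold in 5 of 19 alternatives and VLDLR in 7 of 19. Leaving out DOX-negative replicate 2 or 3 ended both calls, as leaving out DOX-positive replicate 2 or 3 did for VLDLR. BHLHE40, a transcriptional repressor, was at -0.58 (SE 0.23, adjusted p = 0.20), and PPFIA4, a liprin, at -0.67 (SE 0.79, adjusted p = 0.70). BHLHE40 was called without DOX-negative replicate 1 (-0.78, edgeR adjusted p = 0.018) and without DOX-positive replicate 1 (-0.77, adjusted p = 0.047), and was at -0.39 without DOX-negative replicate 3. PPFIA4 was at -1.45 without DOX-positive replicate 1 and at -0.20 without DOX-positive replicate 3.

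Glycolytic HIF targets, a list of 19 with 18 tested, followed the same libraries. The pattern of DOX-negative replicate 1 lowest and DOX-positive replicate 1 highest held for 13 of the 18. DOX-positive replicate 3 was the lowest of its group for 18 of 18, beside 5931 of all 17026 tested genes. The median within-group SD was 0.32 and the median log2 fold change -0.14. PGAM1 (-0.77, SE 0.13, edgeR adjusted p = 0.010) was the 1 called gene of the 18, beside 4.87% of all tested genes. It was no longer called in 5 of 19 alternatives. These were deposited TPM (3 fits) and the removal of DOX-negative replicate 3 or DOX-positive replicate 2. HK2 (-0.995, SE 0.62) and LDHA (-0.78, SE 0.35) were not called, with adjusted p values of 0.46 and 0.29. Leaving out DOX-positive replicate 1 took HK2 to -1.66 and LDHA to -1.11, which was then called (edgeR adjusted p = 0.046), and leaving out DOX-positive replicate 3 took them to -0.63 and -0.53. Averaged as deviations from each gene's mean over the 6 libraries, the 9 genes outside glycolysis stood at -0.17, 0.24 and 0.32 on the log2 scale without DOX and at 0.31, -0.18 and -0.53 with DOX. The glycolytic list stood at -0.11, 0.23 and 0.28 and at 0.21, -0.0090 and -0.61. The oxygen-sensing list stayed between -0.046 and 0.043 in all 6.

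**Figure D4:**
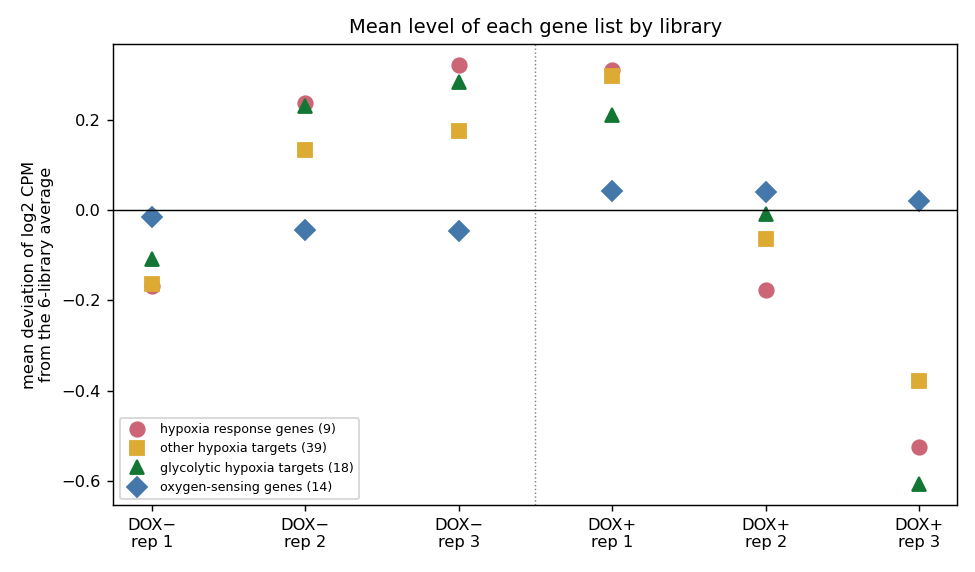
Mean deviation of log2 CPM from the 6-library average (vertical axis) for 4 gene lists in each library (horizontal axis, DOX− for DOX-negative and DOX+ for DOX-positive). The 3 lists of HIF targets are below 0 in DOX-negative replicate 1 and DOX-positive replicate 3 and above 0 in DOX-positive replicate 1. The oxygen-sensing list, which leaves out EGLN1 and EGLN3, stays between -0.046 and 0.043.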

How the data were processed

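Total RNA from H660 cells was made into stranded mRNA libraries. The submitters' processing notes name STAR, DESeq2 and GRCh38 (hg38); versions, annotation and strand setting are not given in the sources used here. The authors deposited raw counts for 28008 gene symbols and TPM for 25673. Here, counts were filtered with filterByExpr, scaled with TMM factors and tested with edgeR 4.0.16 (R 4.3.3; glmQLFit with robust estimation, glmQLFTest), DOX-positive against DOX-negative, with no covariate. The study used DESeq2, run here (DESeq2 1.42.0) as an alternative. P values were adjusted over the 17026 genes tested and called under 0.05. They set the difference between the groups against the spread between 3 cultures per group of this 1 line, estimated with information from all genes. SE came from the F statistic, and log2 CPM used a prior count of 0.5. Code was tested on simulated counts. Other alternatives used limma 3.58.1 (voom, and TPM with a pseudocount). A replicate block was tried. Besides the 10 genes, named genes were the called members of each list, up to 6, the 3 with the largest change at a mean of at least 50 counts, and HIF1A, EPAS1, ARNT and VHL, plus the 5 genes outside all lists most like the mean of the 9 tested genes. STC1, P4HA1, LOXL2 and PLOD2 were added after their values were seen. Some results of these lists are not reported here. The genes and lists were chosen with earlier results of these data known.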

Additional observations from a re-analysis of the deposited data

How the results depend on the processing

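Of 19 alternatives, rescaled TPM over protein-coding genes was added after the data were seen. None of the 9 tested genes was called in the main analysis. One gene, ANKRD37, was called with no count filter (1), DESeq2 (1) and the replicate block (1). Between 0 and 2 were called when 1 library was left out, the 2 being EGLN3 and ANKRD37 without DOX-positive replicate 1. Leaving out 1 library moved the median change of the 9 genes to between -0.57 and -0.034, and the within-group SD to between 0.26 and 0.43. Signs reversed for VEGFA without DOX-positive replicate 1 (-0.032, range to 0.095), for NDRG1 without DOX-negative replicate 2 (0.011) and DOX-positive replicate 3 (range -0.70 to 0.27), and for VHL without DOX-positive replicate 3 (-0.013, range to 0.12). They also reversed for P4HA1 (range -0.90 to 0.24, with 0.021, 0.052 and 0.24 without DOX-negative replicate 2, DOX-positive replicate 2 and DOX-positive replicate 3), WISP1 (range -0.86 to 0.25, with 0.14, 0.064 and 0.25 without DOX-negative replicate 3, DOX-positive replicate 2 and DOX-positive replicate 3) and STC1 (range -2.06 to 0.29, the latter without DOX-positive replicate 3). Of the values of the 9 genes, 114 kept direction and side of the threshold with all 6 libraries and 3 passed it.

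Called genes in all, 829, became 1354 with DESeq2, 31, 35 and 11 on log2(TPM + 1), log2(TPM + 0.1) and unfiltered log2(TPM + 1), and 472 with rescaled TPM. They ranged from 58 (without DOX-negative replicate 3) to 1035 when 1 library was left out. In the 3 fits of TPM as deposited, 0 other hypoxia targets, 0 oxygen-sensing genes and 0 glycolytic targets were called. Leaving out 1 library gave 0 to 6, 0 to 1 and 0 to 2. The model with the replicate block called 998 genes and shared 750 with the 829. The sources used here do not say whether cultures with the same number were handled together. After centring each gene on its group mean, DOX-negative and DOX-positive libraries numbered 1, 2 and 3 correlated at -0.54, 0.019 and -0.11 over 14587 genes. Centred values within a group of 3 depend on each other, so these correlations cannot decide whether the cultures were paired. Why the counts moved was not tested.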

Other observations

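Among the 8901 genes whose mean reached 1000 counts, 8 of the 20 with the largest spread between replicates belonged to the 3 lists of HIF targets. They were NDRG1 and BNIP3 of the genes described above, P4HA1, FAM162A, LOXL2 and PLOD2 of the other targets, and HK2 and PFKFB4 of the glycolytic targets. These lists held 7, 27 and 17 of the 8901 genes, in that order. The genes and lists were chosen with earlier results of these data known, so the count is a description without a test. P4HA1, LOXL2 and PLOD2 encode enzymes that modify collagen, and were named after their values were seen. P4HA1, a prolyl 4-hydroxylase subunit, had 28.2, 46.8 and 42.7 CPM in DOX-negative replicates 1, 2 and 3 and 65.6, 26.7 and 15.3 CPM in the DOX-positive replicates, the order of libraries seen for NDRG1 and BNIP3 in the DOX-positive group.

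STC1, the secreted glycoprotein stanniocalcin 1, had the largest within-group SD of the 14587 genes whose mean reached 50 counts (2.48). It had 69, 157 and 105 counts in DOX-negative replicates 1, 2 and 3, and 271, 54 and 2 counts in DOX-positive replicates 1, 2 and 3, although DOX-positive replicate 3 was the most deeply sequenced library. The change of STC1 with DOX was -0.31 (SE 1.19, adjusted p = 0.92), and it was named after its values were seen.

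The genes outside all lists whose deviations from the group means were most like the average of the 9 genes were NUDT6, KLF10, DGKB, DENND6B and WISP1, with Pearson correlations between 0.996 and 0.999 over 6 libraries. These values are a description, since deviations within 2 groups of 3 leave few degrees of freedom, and 2.64% of those 14587 genes exceeded 0.9. DGKB, a diacylglycerol kinase, had 7.70, 10.1 and 11.1 CPM without DOX and 5.68, 3.73 and 2.90 CPM with DOX. DGKB fell by 1.22 on the log2 scale (SE 0.23, adjusted p = 0.019), a call lost in 5 of 17 alternatives, which were unfiltered log2(TPM + 1), the replicate block and the fits without DOX-negative replicate 2, DOX-negative replicate 3 or DOX-positive replicate 2. The other 4 were not called. WISP1 ranged from 1.17 to 4.39 CPM within the DOX-positive group.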
